A study of Mus musculus with 2 samples.

Results

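The unfolded protein response and the integrated stress response were followed through 10 of their genes, Hspa5, Pdia4, Dnajb9, Herpud1, Edem1, Xbp1, Atf4, Ddit3, Trib3 and Asns. The genes were chosen by name, and their probes were the non-control probes that carry these names on the array. They made up 10 of the 27962 gene names and 15 of the 41174 probes measured. Each of the 15 probes was well above background on all 6 arrays.

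The RNA came from the liver of male apoE-KO mice of the C57BL/6 strain, which lack apolipoprotein E in both groups. From the age of 10 weeks and over 1 week, one group received normal chow and the other the same chow to which 1.25% cholesterol had been added, here called the high-Chol diet. Each diet was represented by 3 independent experiments, each read on a one-colour Agilent whole mouse genome array. The 3 normal chow arrays and high-Chol array 1 shared slide 1, and high-Chol arrays 2 and 3 were on slide 2, so diet and slide overlapped in part. Slide 2 was the brighter one, with a 75th percentile signal before scaling of 799 and 762, against 271 to 373 on slide 1. Signals are given as log2 of the spot intensity relative to the 75th percentile of the same array, and a difference is the high-Chol mean minus the normal chow mean on this scale. Signals of different probes were not compared with each other. The probe of Apoe, the gene disrupted in all of these mice, gave signals of 3.31, 1.66 and 3.81 in normal chow and of 3.20, 3.18 and 3.56 in the high-Chol diet, well above background on each array. It therefore checks neither the genotype nor the diet labels, and whether it lies in the disrupted part of the gene was not determined.

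When unfolded proteins collect in the endoplasmic reticulum (ER), the sensors IRE1, PERK and ATF6 signal to the nucleus. IRE1 splices the mRNA of Xbp1, ATF6 is cut to release a transcription factor, and both act on genes of ER chaperones and of ER-associated degradation. PERK is one of several kinases that phosphorylate the initiation factor eIF2α, a step shared with amino acid shortage, which favours translation of ATF4. ATF4 acts on genes of amino acid supply and, together with CHOP, the product of Ddit3, on genes of stress and cell death. The liver secretes large amounts of plasma protein and depends on this folding machinery.

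All 10 genes had a start-site window in RefSeq (GRCm38.p6), from 250 bases before to 50 bases after the start. Both strands of 32851 such windows were searched for 4 motifs of these pathways. The ER stress element, read as CCAAT and CCACG with 9 bases of any kind between them, was found in 39 windows (0.119%), among them that of Hspa5, where it began 65 bases before the start. The ER stress element II, read as ATTGG and CCACG with 1 base between them, was found in 12 windows (0.0365%), among them that of Herpud1, 52 bases before the start. The C/EBP-ATF response element, TGATGNAA, was found in 1304 windows (3.97%), and 3 of the 10 genes held it. It lay 23 bases before the start of Asns, 112 bases before the start of Herpud1 on the opposite strand, and 15 bases into the transcript of Trib3 on the opposite strand. The unfolded protein response element, TGACGTGG, was found in 222 windows (0.676%) and in none of the 10 genes. The letters CCACG belong to both ER stress elements, but no match in the 10 genes overlapped another. A match is a match of letters, and binding was not measured.

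The 120 bases before the start are shown for the 3 genes with a match upstream of it, so that the letters matched and their surroundings can be read. Each is written 5′ to 3′ on the strand of the gene, with the fixed letters of the matches in capitals. The stretches are chr2:34771970-34772089 on the plus strand for Hspa5, chr8:94386309-94386428 on the plus strand for Herpud1 and chr6:7693210-7693329 on the minus strand for Asns, all on GRCm38.p6.
Hspa5: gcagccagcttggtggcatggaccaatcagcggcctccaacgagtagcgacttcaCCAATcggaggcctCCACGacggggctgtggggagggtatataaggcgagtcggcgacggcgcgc
Herpud1: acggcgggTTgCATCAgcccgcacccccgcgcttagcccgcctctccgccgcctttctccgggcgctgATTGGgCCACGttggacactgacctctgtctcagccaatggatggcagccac
Asns: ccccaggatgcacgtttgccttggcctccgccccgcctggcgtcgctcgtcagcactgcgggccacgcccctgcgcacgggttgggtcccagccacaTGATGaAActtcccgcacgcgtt

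**Figure D1:**
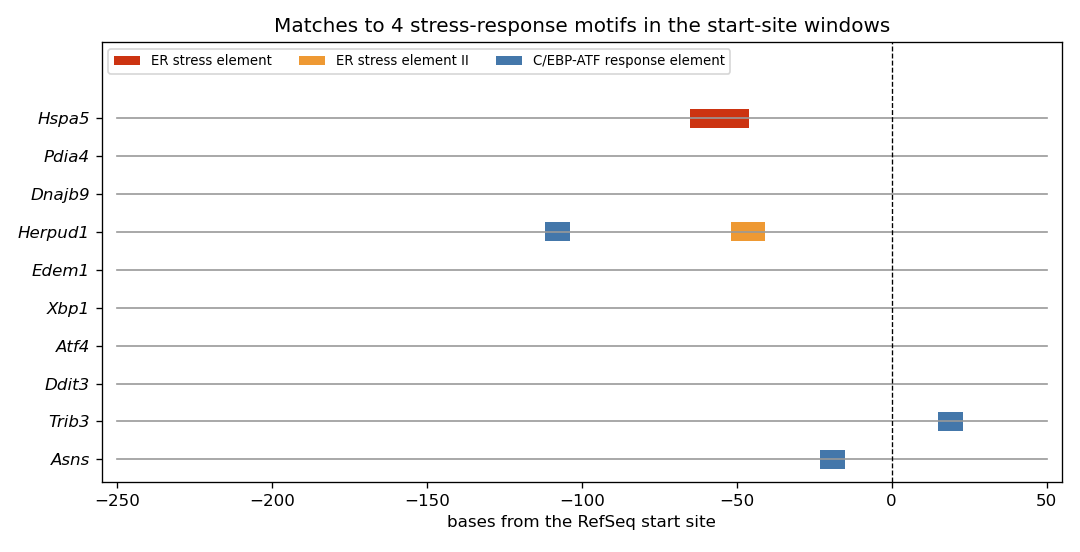
Matches to the searched motifs in the window from 250 bases before to 50 bases after the RefSeq start of each gene (x axis, bases from the start; one line per gene, coloured blocks for matches on either strand). Hspa5, Herpud1, Trib3 and Asns held matches, and the lines of the other 6 genes are empty.

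None of the 10 genes passed the test between the diets (limma, Benjamini-Hochberg adjusted p under 0.05 over 16732 genes), beside 2.92% of all genes. In all genes the calls were uneven, with 2.69% called higher and 0.227% called lower in the high-Chol diet. At an unadjusted p under 0.05, 2 of the 10 genes were lower and 0 were higher, against 8.83% and 12.3% of all genes. The methods' t-test, run as an alternative, gave 1 of the 9 genes read on every array at an unadjusted p under 0.05 and 0 after adjustment. The difference was below 0 in 7 of the 10 genes, with a median of -0.29, while 47.8% of all genes had a difference above 0 and the median of all genes was -0.02. Differences beyond 1.5-fold were seen in 3 genes, all lower (Herpud1, Asns and Xbp1), against 5.84% of all genes lower and 15.4% higher. The small number of arrays sets the precision of each value, and for a single gene 3 arrays against 3 allow no p below 0.1 by exact permutation.

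**Figure D2:**
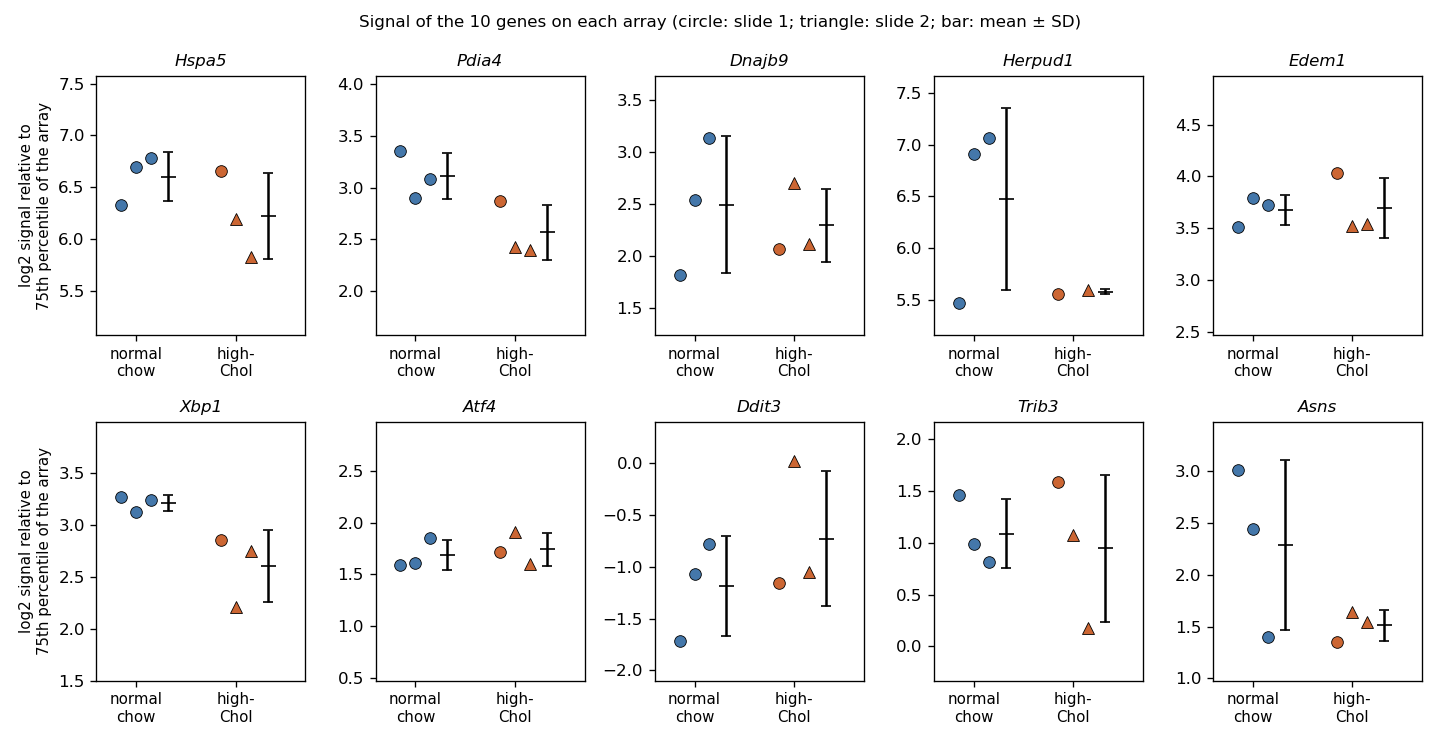
Log2 signal relative to the 75th percentile of the array (y axis, the same span of 2.5 units in each panel) for the 10 genes by diet, with circles for slide 1, triangles for slide 2 and bars for mean ± SD. Only for Pdia4 and Xbp1 do the high-Chol points all lie below the normal chow points, and 1 high-Chol point of Herpud1 is missing.

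Among the chaperones and folding enzymes of the 10 genes (Hspa5, Pdia4 and Dnajb9), Pdia4 was the one whose diets did not overlap. Pdia4, a protein disulfide isomerase of the ER (probe at chr6:47755834-47755893 in mm7, the build of the array's annotation), gave 3.35, 2.90 and 3.09 in normal chow and 2.87, 2.43 and 2.40 in the high-Chol diet. Every high-Chol array lay below every normal chow array, though high-Chol array 1 was close to normal chow array 2. The means were 3.11 ± 0.22 and 2.57 ± 0.27 (SD, n = 3 each), a difference of -0.55 (95% confidence interval -1.02 to -0.07). The adjusted p from limma was 0.196. Without high-Chol array 1 the difference was -0.70 and passed the test (limma adjusted p = 0.0452), and within slide 1 it was -0.24.

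Hspa5 encodes BiP, the main Hsp70 chaperone of the ER, which also holds the sensors inactive in the resting state. Its probe (chr2:34783421-34783480, mm7) gave 6.33, 6.69 and 6.78 in normal chow and 6.65, 6.19 and 5.82 in the high-Chol diet. High-Chol array 1 lay within the normal chow range, and the slide 2 arrays lay below it. The difference was -0.38 ± 0.25 (SE) with an adjusted p of 0.391 by limma, and it was 0.05 within slide 1 and 0.04 after normexp background correction, so its direction was not stable. Leaving out high-Chol array 1 gave -0.60, and leaving out high-Chol array 3 gave -0.18.

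Dnajb9 encodes ERdj4, a co-chaperone of BiP. Its brightest probe (chr12:42082310-42082369, mm7) gave 1.81, 2.54 and 3.13 in normal chow and 2.07, 2.70 and 2.12 in the high-Chol diet. The high-Chol arrays all lay inside the normal chow range, and the difference of -0.20 ± 0.35 (SE) had an adjusted p of 0.755 by limma. Its other 2 probes gave differences of -0.25 and -0.20. The direction turned without normal chow array 3 (0.12) and after normexp background correction (0.02).

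Of the genes of ER-associated degradation, Herpud1 spread widely within normal chow and Edem1 did not. Herpud1 encodes an ER membrane protein of the degradation complex. Its probe (chr8:92984261-92984320, mm7) gave 5.47, 6.91 and 7.06 in normal chow and 5.56 and 5.60 on high-Chol arrays 1 and 3. Normal chow array 1 stood with the high-Chol arrays rather than with the other two normal chow arrays. The spot of high-Chol array 2 was marked as an outlier by the scanner software and was left out of the fit, so the high-Chol diet counted 2 arrays here. The difference was -0.90 ± 0.49 (SE), or 1.86-fold lower, with an adjusted p of 0.331 by limma. With the marked spot kept, its value of 6.31 gave a difference of -0.65. Without normal chow array 1 the difference was -1.40 and passed the test (limma adjusted p = 0.0495). Within slide 1 it was -0.92.

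Edem1 takes part in passing misfolded glycoproteins to degradation. Its brightest probe (chr6:108952964-108953023, mm7) gave 3.51, 3.79 and 3.72 in normal chow and 4.03, 3.52 and 3.54 in the high-Chol diet. High-Chol array 1 was the highest of all 6, and the slide 2 arrays lay within the normal chow range. The difference was 0.02 (95% confidence interval -0.43 to 0.48, limma adjusted p = 0.955). The other probes gave -0.17 and 0.15, the value within slide 1 was 0.35, and median scaling gave -0.21. Relative to the median of all genes the difference of Edem1 was 0.04 on both of these scales.

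Of the transcription factors, Xbp1 was lower on every high-Chol array, and Atf4 and Ddit3 overlapped between the diets. Xbp1, the factor made active by IRE1 splicing (probe at chr11:5476970-5477029, mm7), gave 3.27, 3.13 and 3.24 in normal chow and 2.85, 2.21 and 2.75 in the high-Chol diet. The normal chow arrays differed by little (SD 0.07, a smaller SD than all but 10.6% of genes), and the high-Chol arrays spread more (SD 0.35). The difference was -0.61 (95% confidence interval -1.09 to -0.13), or 1.53-fold lower, with an adjusted p of 0.170 by limma. It was -0.36 within slide 1. The spliced form was not measured separately.

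Atf4, whose protein level is set largely by translation, gave 1.59, 1.61 and 1.85 in normal chow and 1.72, 1.91 and 1.60 in the high-Chol diet (chr15:80341130-80341189, mm7). The diets covered nearly the same range. The difference was 0.06 (95% confidence interval -0.32 to 0.43, limma adjusted p = 0.856), with -0.03 without high-Chol array 2. Median scaling gave -0.18, but relative to the median of all genes the difference of Atf4 was 0.08 on both scales. This interval leaves room for a change of up to 1.35-fold higher or 1.25-fold lower.

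Ddit3 encodes CHOP. It gave -1.72, -1.07 and -0.78 in normal chow and -1.16, 0.02 and -1.05 in the high-Chol diet (chr10:126796858-126797161, mm7). High-Chol array 2 lay above all others, and high-Chol arrays 1 and 3 lay within the normal chow range. The difference was 0.46 ± 0.38 (SE), with an adjusted p of 0.481 by limma. It was the highest of the 10 genes over all arrays, but was 0.09 without high-Chol array 2, under the 0.11 of Edem1, and 0.20 without normal chow array 1. It was 0.03 within slide 1 and -0.07 after normexp background correction.

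The downstream targets of ATF4 among the 10 genes were Trib3 and Asns. Trib3, a pseudokinase that dampens insulin signalling, gave 1.46, 0.99 and 0.82 in normal chow and 1.58, 1.08 and 0.18 in the high-Chol diet with its brightest probe (chr2:152078476-152078535, mm7). The high-Chol arrays spanned both the highest and the lowest value. The difference was -0.14 ± 0.37 (SE, limma adjusted p = 0.839) and its other probe gave -0.28. It was 0.50 within slide 1, 0.24 without high-Chol array 3 and 0.05 without normal chow array 1, so its direction was not stable.

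Asns encodes asparagine synthetase, a standard readout of amino acid shortage. Its probe (chr6:7628080-7628139, mm7) gave 3.01, 2.44 and 1.40 in normal chow and 1.35, 1.64 and 1.54 in the high-Chol diet. The normal chow arrays spread over a wide range, and the lowest of them lay within the high-Chol range. The means were 2.29 ± 0.82 and 1.51 ± 0.15 (SD, n = 3 each), a difference of -0.78 or 1.71-fold lower. The size rested on the normal chow arrays, with -0.41 without normal chow array 1 and -1.22 without normal chow array 3. The adjusted p from limma was 0.287, and the difference within slide 1 was -0.93.

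**Figure D3:**
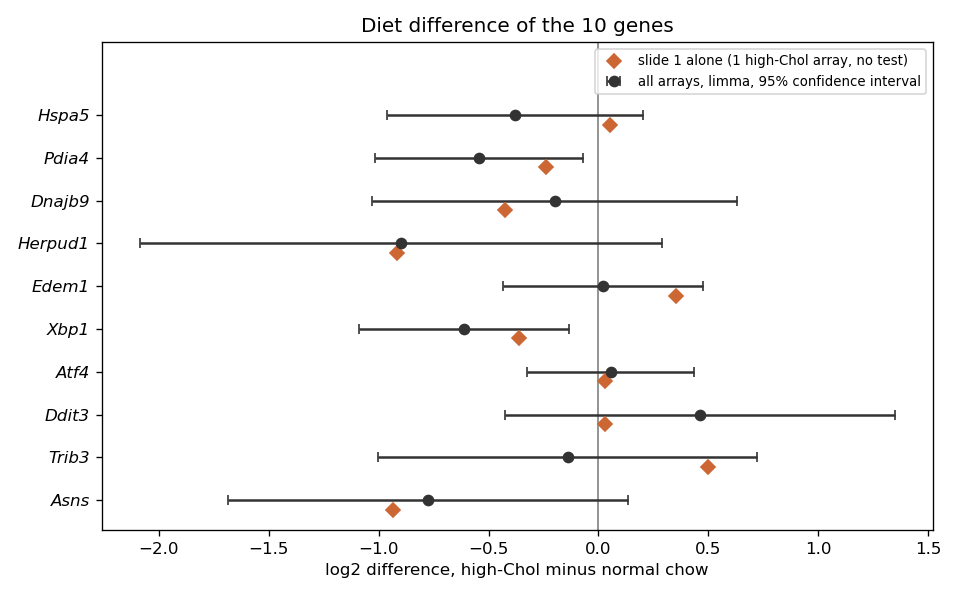
Log2 difference, high-Chol minus normal chow (x axis), of the 10 genes (y axis), with black points and bars for the limma estimate over all arrays and its 95% confidence interval, and orange diamonds for slide 1 alone. The intervals of Pdia4 and Xbp1 lie below 0 and those of the other 8 genes include 0, and the diamonds of Hspa5 and Trib3 lie on the other side of 0 from their points.

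The diets did not overlap in 2 of the 9 genes read on all 6 arrays, both lower, against 14% of all genes lower and 11.8% higher. Spread within normal chow was large in some of these genes. The SD of normal chow was 0.88 for Herpud1, 0.82 for Asns and 0.66 for Dnajb9, and 97.8%, 97.3% and 94.5% of all genes had a smaller one. In 7 of the 10 genes it was above the median of all genes (0.20). Normal chow array 1 held the highest value of Pdia4, Xbp1 and Asns and the lowest of Dnajb9, Edem1, Atf4 and Ddit3, so the 10 genes did not share 1 order of the arrays.

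Patterns over the 6 arrays were compared by the root mean square (RMS) difference of the centred log2 values, with no test. Among the 9 genes with complete values, Pdia4 and Xbp1 were each other's nearest (RMS 0.19), and Asns and Ddit3 were the farthest apart (RMS 1.01). Over 14051 genes, the nearest to Xbp1 were Rpo1-2, Olfr434 and Trpt1 (RMS 0.05, 0.06 and 0.07). Herpud1, lacking a value on 1 array, was not compared.

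The scaling of the arrays mattered for these genes. The median of all genes was -0.02 on the 75th percentile scale, -0.02 after quantile normalization, -0.26 after median scaling and -0.11 after normexp background correction. Relative to these medians, 7 of the 10 genes lay below the median of all genes on the first 3 scales and 4 of 10 after normexp background correction. Pdia4, Herpud1, Xbp1, Trib3 and Asns had a difference below 0 on each of the 4 scales. Relative to the median of all genes, Trib3 stood at 0.05 after normexp background correction. Pdia4, Herpud1, Xbp1 and Asns lay below that median on each scale. The authors' own values, one mean per diet, carry no error. Their differences of -0.79 for Pdia4, -0.85 for Xbp1 and -1.02 for Asns lay near the median-scaled ones (-0.78, -0.85 and -1.01). That of Herpud1 was -0.90, against -0.90 on the 75th percentile scale and -1.07 after median scaling, both without the outlier-marked spot. With this spot kept, the 75th percentile value of Herpud1 was -0.65. Over the probes compared, the authors' differences had a median offset of -0.24 from the 75th percentile ones and of -0.006 from the median-scaled ones. Whether the authors kept the marked spot is not stated, so the value of Herpud1 does not tell its scaling. The column medians of the authors' values were -0.0019 and -0.27, and how they were centred is not stated.

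**Figure D4:**
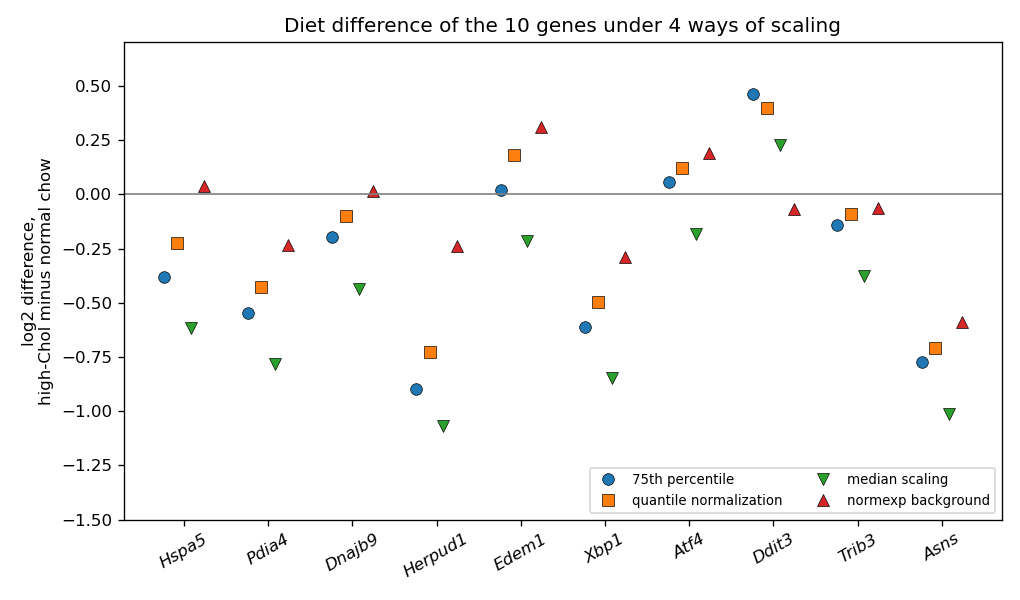
Log2 difference, high-Chol minus normal chow (y axis), of each of the 10 genes (x axis) under the 4 ways of scaling, one symbol per way. Median scaling gives the lowest value for each gene but Ddit3, whose lowest is -0.07 after normexp background correction.

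The wider pathways were described by 5 lists with 120 entries, of which 109 could be measured. Of these, 36 were higher and 73 lower in the high-Chol diet, with 3 called higher and 2 called lower by limma and a median of -0.14. Over all genes 2.69% were called higher, so the higher calls were near that share, and 0.227% were called lower. Of the 109 genes, 8 were kept through the high-Chol diet alone, 1 of the called genes (Aldh18a1) among them. The other 101 genes held 29 higher and 72 lower, with 2 called in each direction and a median of -0.16. All 5 calls were lost without a filter on dim probes, by the methods' t-test, with slide as a block and after normexp background correction. The block leaves 1 high-Chol array against the 3 normal chow arrays of slide 1, so a call lost there says little.

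The list of ER chaperones and folding enzymes lay mostly below 0. All 25 genes were measured, 23 were lower and 2 higher, and 0 were called by limma, with 8 at an unadjusted p under 0.05, each lower, where 8.83% of all genes were. The median was -0.36. Without high-Chol array 1, 3 genes of the list were called lower, beside 761 of 16688 genes. By array, the median of the list relative to the normal chow means was -0.02, -0.10 and 0.07 in normal chow and -0.24, -0.48 and -0.39 in the high-Chol diet, so the high-Chol arrays lay below the normal chow arrays and the one on slide 1 the least far. Of the 23 genes with complete values, 12 had diets without overlap on the lower side and 1 on the higher side, against 14% and 11.8% of all genes. The counts were 13 and 0 after median scaling, 6 and 1 after quantile normalization, and 0 and 0 after normexp background correction.

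Hyou1, a chaperone that serves BiP, gave 3.67, 3.11 and 2.81 in normal chow and 2.77, 1.79 and 2.36 in the high-Chol diet, a difference of -0.89 (limma adjusted p = 0.186). Creld2, a resident ER protein induced by ER stress, averaged 5.53 ± 0.33 and 4.81 ± 0.25 (SD, n = 3 each). Its difference was -0.72 (limma adjusted p = 0.152). Both were lower on every high-Chol array, as the chaperone Hsp90b1 was (6.83 ± 0.22 against 6.31 ± 0.16, SD, n = 3 each). The 2 genes on the other side were Fkbp14, a prolyl isomerase (0.38), and Hspa13, named Stch on the array (0.32). Within 19 genes of this list that had a start-site window, 6 (Calr, Canx, Creld2, Dnajc3, Hsp90b1 and Pdia6) held the ER stress element seen in Hspa5, and Dnajb11 held the ER stress element II seen in Herpud1.

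Of the 25 chaperone genes, 23 were below 0 after median scaling, 22 after quantile normalization and 17 after normexp background correction. Below the median of all genes lay 23, 22 and 12 of them. The direction of the list was therefore not held after normexp background correction, where its median of -0.09 lay beside -0.11 for all genes. Within slide 1 the median was -0.24, and 4 of the 25 genes were higher. The summed signal of 7 hepatocyte markers was lower on the high-Chol arrays too (1117 to 1274, against 1433 to 1712 in normal chow, in units of the 75th percentile), with 6 of 7 markers lower and 0 called. All 7 were well above background on every array. Its part in the result was not tested. In bulk liver, fewer cells of a type and less RNA per cell cannot be told apart.

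In the list of ER-associated degradation, 16 of 19 measured genes were lower and 0 were called by limma, with 2 at an unadjusted p under 0.05, both lower, a share near the 8.83% of all genes. The median was -0.13, but 14 of 19 genes were higher after normexp background correction. Derl3, a derlin of the ER membrane, gave 0.55, -0.53 and -1.44 in normal chow and -1.72, -1.88 and -1.35 in the high-Chol diet, a difference of -1.18 (limma adjusted p = 0.219). The normal chow arrays of Derl3 spanned more than the difference between the diets, and the lowest of them lay within the high-Chol range. Edem2 had a difference of -0.57, Ngly1 of 0.21 and Edem3 of 0.15.

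In the list of sensors and signalling, 11 of 20 genes were lower and 9 higher, with a median of -0.12, and 2 fell, beside 0.227% of all genes called lower. Creb3l1 was kept through the high-Chol diet alone, and the other 19 genes stood well above background on all 6 arrays. Map3k5, the stress kinase ASK1, gave 0.22, 0.31 and 0.21 in normal chow and -0.48, -1.16 and -1.03 in the high-Chol diet, a difference of -1.13 (limma adjusted p = 0.0377). Creb3l3, a liver transcription factor held in the ER membrane, gave 6.11, 6.07 and 6.12 in normal chow and 5.36, 4.82 and 5.28 in the high-Chol diet, a difference of -0.95 (limma adjusted p = 0.0457). For both, the normal chow arrays were close together and the high-Chol array of slide 1 lay nearest to them. Within slide 1 the differences were -0.73 and -0.74, and both calls were lost without any one of the arrays other than high-Chol array 1. The differences in these 5 fits ran from -1.15 to -0.999 for Map3k5 and from -1.01 to -0.78 for Creb3l3. Traf2, an adaptor of IRE1, had a difference of 0.67 and Bok, a BCL2 family protein, of 0.51, neither called.

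Among the ATF4 and CHOP stress targets 2 of 18 genes rose, beside 2.69% of all genes, while Atf4 and Ddit3 themselves were not called. Of the 18 genes, 10 were higher and 8 lower, and the median was 0.11. It was -0.10 after median scaling, which moved all genes down, and 8 of the 18 lay below the median of all genes on both scales. It was 0.23 after quantile normalization, 0.27 with averaged probes and 0.12 to 0.24 when single arrays were left out, the highest without high-Chol array 3. The number called higher was 3 after median scaling and 3 with the filter on all 6 arrays. Leaving out single arrays gave 0 to 4, with 4 without high-Chol array 1, where 2316 of all genes were called higher. Vldlr, one of the 10, was kept through the high-Chol diet alone, and of the 17 that stood well above background on all 6 arrays 9 were higher and 8 lower, with a median of 0.04. Pmaip1, the cell death gene known as Noxa, gave -2.34, -2.49 and -2.42 in normal chow and -0.64, 0.32 and -0.09 in the high-Chol diet. The groups were far apart relative to their spread, and the difference was 2.28, or 4.85-fold higher (limma adjusted p = 0.00895). Atf3, a transcription factor induced by many stresses, gave -2.94, -2.95 and -2.03 in normal chow and -0.96, -0.13 and -0.39 in the high-Chol diet, a difference of 2.15 or 4.43-fold higher (limma adjusted p = 0.0207).

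Within slide 1 the differences of Pmaip1 and Atf3 were 1.78 and 1.68. With normexp background correction they were 0.72 and 0.75. Without normal chow array 2 the call of Pmaip1 was lost (limma adjusted p = 0.0591), while that of Atf3 was lost without any one of 4 arrays and kept without high-Chol array 1 or normal chow array 3. Gdf15, a secreted stress cytokine, gave -0.31, -0.27 and 1.24 in normal chow and 2.76, 3.39 and 2.04 in the high-Chol diet. Its difference was the largest of the lists, 2.51, and missed the threshold (limma adjusted p = 0.0513). Tnfrsf10b, a death receptor, had a difference of -0.75 and Chac1, a glutathione-degrading enzyme, of -0.60, neither called.

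Markers of macrophages and neutrophils had higher summed signals in the high-Chol diet too. The summed signal of 8 macrophage markers was 111 to 126 in normal chow and 253 to 298 in the high-Chol diet, with all 8 higher and 3 called (Cd5l, Cd68 and Marco), again beside 2.69% of all genes. That of 6 neutrophil markers was 1.49 to 1.64 and 9.27 to 15.5, with S100a8 and S100a9 called, while Ngp, Camp and Elane, named Ela2 on the array, were not well above background on any array and Ltf was kept through the high-Chol diet alone. The T cell sum was 0.493 to 0.538 and 0.581 to 1.08, from dim probes of which 1 of 5 was well above background on all 6 arrays and 4 were so throughout the high-Chol diet alone. B and plasma cell (11.0 to 14.9 and 14.5 to 16.9), endothelial (28.7 to 32.5 and 28.6 to 31.6) and stellate (41.3 to 60.9 and 45.1 to 55.6) sums overlapped. Of the 6 stellate markers 3 were higher and 3 lower. Col1a1 was called higher (1.04, limma adjusted p = 0.0257) and Col3a1 was higher without overlap (0.82). Of the 6 endothelial markers 4 were higher, 2 of them without overlap (against 11.8% of all genes), 2 were lower and 0 were called. The sum of the cholangiocyte markers was 1.54 to 1.64 and 1.18 to 1.40. The part of these cells in the levels of Pmaip1, Atf3 and Gdf15 was not tested.

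In the list of amino acid synthesis, transport and tRNA charging, where Asns belongs by function, 12 of 27 genes were higher and 15 lower, with a median of -0.03. However, 6 of the 27 were well above background throughout the high-Chol diet alone and were kept through it, and of the 21 well above background on all 6 arrays 7 were higher and 14 lower, with a median of -0.06. The direction of this list was not stable. Its median was 0.02 after quantile normalization and 0.07 both with slide as a block and without normal chow array 1, where 16, 15 and 16 of the 27 genes were higher. The 1 gene called by limma over all arrays (against 2.69% of all genes called higher), Aldh18a1, an enzyme of proline synthesis, was among those 6, with -4.81, -4.45 and -4.62 in normal chow and -3.42, -3.80 and -3.68 in the high-Chol diet. Its difference of 0.99 (limma adjusted p = 0.0346) came from a dim probe, well above background on 1 of 3 normal chow and all 3 high-Chol arrays. The gene was kept only through the diet in which it was higher, so its call is given as a description. The difference was -0.61 after normexp background correction. Without any one of the arrays other than high-Chol array 1 its call was lost. The glycine transporter Slc6a9 gave 4.30, 5.24 and 4.65 in normal chow and 3.21, 3.64 and 4.26 in the high-Chol diet, a difference of -1.03 that was not called (limma adjusted p = 0.164). The neutral amino acid transporter Slc1a4 had a difference of 0.80, the threonyl-tRNA synthetase gene Tars of 0.55 and Shmt2, the serine hydroxymethyltransferase of mitochondria, of -0.64, none of them called.

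**Figure D5:**
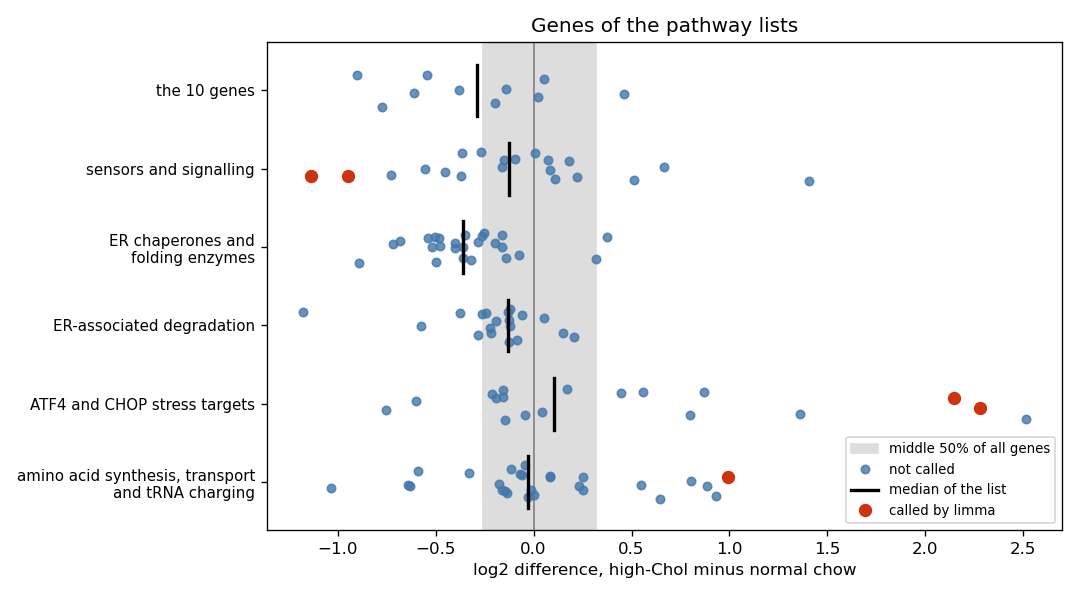
Log2 difference, high-Chol minus normal chow (x axis), of each measured gene of the 10 genes and of the 5 pathway lists (y axis), with red points for genes called by limma, black bars for list medians and a grey band for the middle 50% of all genes. The chaperone list lies almost wholly below 0 with a median of -0.36, and Pmaip1, Atf3 and Gdf15 stand apart above 2 in the list of stress targets.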

How the data were processed

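Liver RNA of 3 normal chow and 3 high-Chol experiments was labelled with Cy3 and hybridised to one-colour arrays. The authors deposited the scanner output, whose spot intensity values were background-subtracted by Agilent Feature Extraction (9.5 on slide 1 and 9.1 on slide 2 per the file headers), and a table of log2 values, one per probe and diet, after normalizing and filtering with settings not given in the sources used here.

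From the intensities, log2 of the processed signal minus the 75th percentile over the 43379 non-control spots of the array was taken. Outlier-marked spots, 75 to 196 on an array, were dropped, and replicate spots of a probe were averaged. Kept probes had signal well above background throughout at least 1 diet, and a gene was read from its brightest kept probe. Between 50.5% and 67.2% of spots were well above background. The comparison of the diets used lmFit and eBayes of limma 3.58.1 (R 4.3.3), with Benjamini-Hochberg adjustment over 16732 genes, and a gene was called at an adjusted p under 0.05. The labels name 3 independent experiments per diet without saying how many mice each held, so p-values measure the spread between these arrays. Scripts were tested on simulated data.

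The genes named are all 10, each called gene of a pathway list with the 2 largest differences in each direction among those well above background on all arrays, the 3 nearest by pattern to each of the 3 genes with the largest difference, the cell type markers and Apoe. The genes nearest to Asns are not reported here. Hsp90b1, Creb3l1, Vldlr and the genes named for a motif lie outside this rule and were picked with their values in view. The members and lists were chosen with earlier results of these data known. The alternatives were normexp background correction (offset 50), median scaling, quantile normalization, no filter or a filter on all 6 arrays, averaged probes, a slide block, each array left out, the methods' t-test, the authors' values and, added after seeing the data, outlier spots kept. Sequences came from RefSeq tables searched in Python 3.11.15.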

Additional observations from a re-analysis of the deposited data

How the results depend on the processing

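The 10 genes were called in neither direction under normexp background correction, median scaling, quantile normalization, any filter, averaged probes or the slide block, nor were the 9 that the methods' t-test could take (without Herpud1), and leaving out 1 array at a time gave 0 to 1 called lower (Pdia4 without high-Chol array 1, Herpud1 without normal chow array 1) and 0 called higher. Apart from the shift of all genes by median scaling, for each reversal below the cause was not tested. With median scaling, which moved the median of all genes by more than 0.1, the differences of Atf4 and Edem1 were -0.18 and -0.21 (0.08 and 0.04 relative to that median, as on the 75th percentile scale), 1 of the 10 genes was above 0, 5 were lower by more than 1.5-fold, and 73 of all genes were called lower. The list medians there were -0.53 for the 10 genes, -0.36 for sensors, -0.58 for chaperones, -0.37 for ER-associated degradation, -0.10 for stress targets and -0.26 for the amino acid list. In the authors' values Atf4 and Edem1 stood at -0.19 and -0.22. With normexp background correction, Ddit3 turned to -0.067, Dnajb9 to 0.017, Hspa5 to 0.037 and Aldh18a1 to -0.61, 1 of the 10 genes was lower by more than 1.5-fold, 0 of all genes were called in either direction, and the medians were -0.064 for the 10 genes, -0.090 for chaperones and 0.050 for ER-associated degradation. With quantile normalization the medians of chaperones and ER-associated degradation were -0.22 and -0.030. It also ended the calls of Creb3l3 and Aldh18a1, the latter lost after median scaling too.

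With slide as a block, a contrast that rests on high-Chol array 1 alone and equals the difference within slide 1, Hspa5 turned to 0.051 and Trib3 to 0.50, 5 of the 10 genes were above 0, 11 genes were called higher and 0 lower, and the medians were -0.10 for the 10 genes, 0.018 for sensors, -0.24 for chaperones and 0.40 for stress targets. Without a filter on dim probes, 26 genes were called higher and 0 lower, and by the methods' t-test 4 and 1. The counts called higher and lower were 450 and 38 over all arrays, and leaving out 1 array gave 42 (without normal chow array 2) to 2316 higher and 0 to 761 lower, the highest of both without high-Chol array 1. Without single arrays the difference ran from -0.028 to 0.14 for Atf4, -0.54 to 0.12 for Dnajb9, -0.14 to 0.11 for Edem1 and -0.46 to 0.24 for Trib3. The medians ran from -0.53 to -0.15 for the 10 genes, -0.23 to -0.11 for ER-associated degradation and -0.18 to -0.017 for sensors, with 0 to 1 of the 10 genes higher and 1 to 5 lower by more than 1.5-fold. No paired analysis was possible because the labels name the replicates of each diet jointly and the files carry no replicate numbers. Xbp1, Pdia4, Herpud1 and Asns had a difference below 0 under each of these alternatives, except that Herpud1 was not tested by the methods' t-test.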
